A study of Mus musculus with 12 samples.

Results

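Transfer RNAs carry many chemical marks that are added after transcription, and the enzymes that write them are the subject here. Some marks sit at the wobble base of the anticodon and tune how codons are read, and others hold the body of the molecule in shape. Several of these genes are known from inherited intellectual disability and other neurological disease in humans, among them FTSJ1, NSUN2, WDR4, PUS3, ELP2 and ADAT3. The list holds 46 genes out of 53379 gene rows, and all 46 were matched by symbol. It covers tRNA methyltransferases, the Elongator complex, and the enzymes of thiolation, pseudouridine, dihydrouridine, deamination and the modified purines beside the anticodon. Of the 46, 44 were listed for their function. Trmt9b and Wdr6 were listed because of their difference between the groups of this study, where edgeR's quasi-likelihood test had given adjusted p-values of 0.0124 and 0.124. Their fold changes are therefore a description and are not tested here.

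The tissue was cut by laser from the cerebellum of C57BL/6 mice at postnatal day 6. It was the external granule layer, in the central lobules, which holds the dividing precursors of granule neurons. The animals were conditional knockouts of SnoN, the SMAD-binding transcriptional regulator encoded by Skil, and control littermates labelled wild type. The Cre driver and the deleted exons are not given in the labels, and neither is the animal behind a library. The p-values therefore cover the spread among libraries, which may be partly technical. There were 6 wild-type libraries (WT1, WT2, WT3, WT5, WT6 and WT7) and 6 knockout libraries (KO2, KO3, KO4, KO5, KO6 and KO8). WT2 and KO4 were marked as outliers by the submitters, so means and tests use the other 5 and 5, and the marked values are given beside them. KO2 is titled knockout but tagged with the wild-type genotype, and was kept by its title.

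The libraries held 7520076 to 15083086 counts in genes. Skil lay at 38.5 to 57.8 CPM (TMM-scaled counts per 1000000) in the 5 wild-type libraries and at 20.9 to 36.7 CPM in the 5 knockout libraries. WT2 had 76.5 CPM and KO4 had 14.0 CPM. The 6 granule precursor markers (Atoh1, Barhl1, Zic1, Pax6, Mfap4 and Gli1) were all detected, and summed to 1996 to 2192 CPM in wild type and 1945 to 2472 CPM in knockout. At an unadjusted p under 0.05, Pax6 had a higher mean in knockout (log2 fold change 0.34) and Barhl1 and Mfap4 had lower means (-0.43 and -0.39). Markers of other cells were present too. No gene of these lists was called and none was at 0 in all 10 libraries. The 6 Purkinje markers summed to 219 to 322 CPM in wild type and 282 to 484 CPM in knockout, and 3 of the 5 tested had higher means at that p, as had both tested interneuron markers (Gad1 and Gad2). Of 5 oligodendrocyte markers, 2 had lower means. The 7 markers of Bergmann glia and astrocytes summed to 681 to 1096 and 907 to 1311 CPM, and 1 of them, Fabp7, had a higher mean. WT2 had Purkinje and glial sums of 592 and 2067 CPM, the glial sum being mostly Fabp7 (1519 CPM). Slc1a3 (282 CPM) and Aqp4 (110 CPM) in WT2 also lay above their ranges in the 5 compared wild-type libraries. Gfap, Hopx and Sept4 lay below their ranges, and Gdf10 lay within its range. The sums of KO4 were 258 and 967 CPM. The part of these cells in the values below was not tested, and in bulk samples fewer cells of a type and less RNA per cell cannot be told apart.

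In the wild-type layer the enzymes spanned a wide range of levels. Per length of transcript, in TPM (transcripts per 1000000, from the exon length of each gene), 27 of the 46 genes were above 10, 15 lay between 1 and 10, and 4 were below 1. The highest was Elp3, the catalytic subunit of Elongator, at 154 ± 14.1 TPM (SD, n = 5), from 136 to 172 TPM over the libraries. Elp5, a subunit of the smaller Elongator subcomplex, was next at 92.1 ± 7.32 TPM. Wdr6, the WD repeat partner of the ribose methyltransferase Ftsj1, was close to it at 90.8 ± 7.60 TPM, and the order of these 2 is within their spread. Dus1l, a dihydrouridine synthase, was at 50.8 ± 4.17 TPM and Elp4 at 43.5 ± 3.88 TPM. Including WT2 lowered the mean of Wdr6 to 82.1 TPM, since WT2 alone was at 39.0 TPM.

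**Figure D1:**
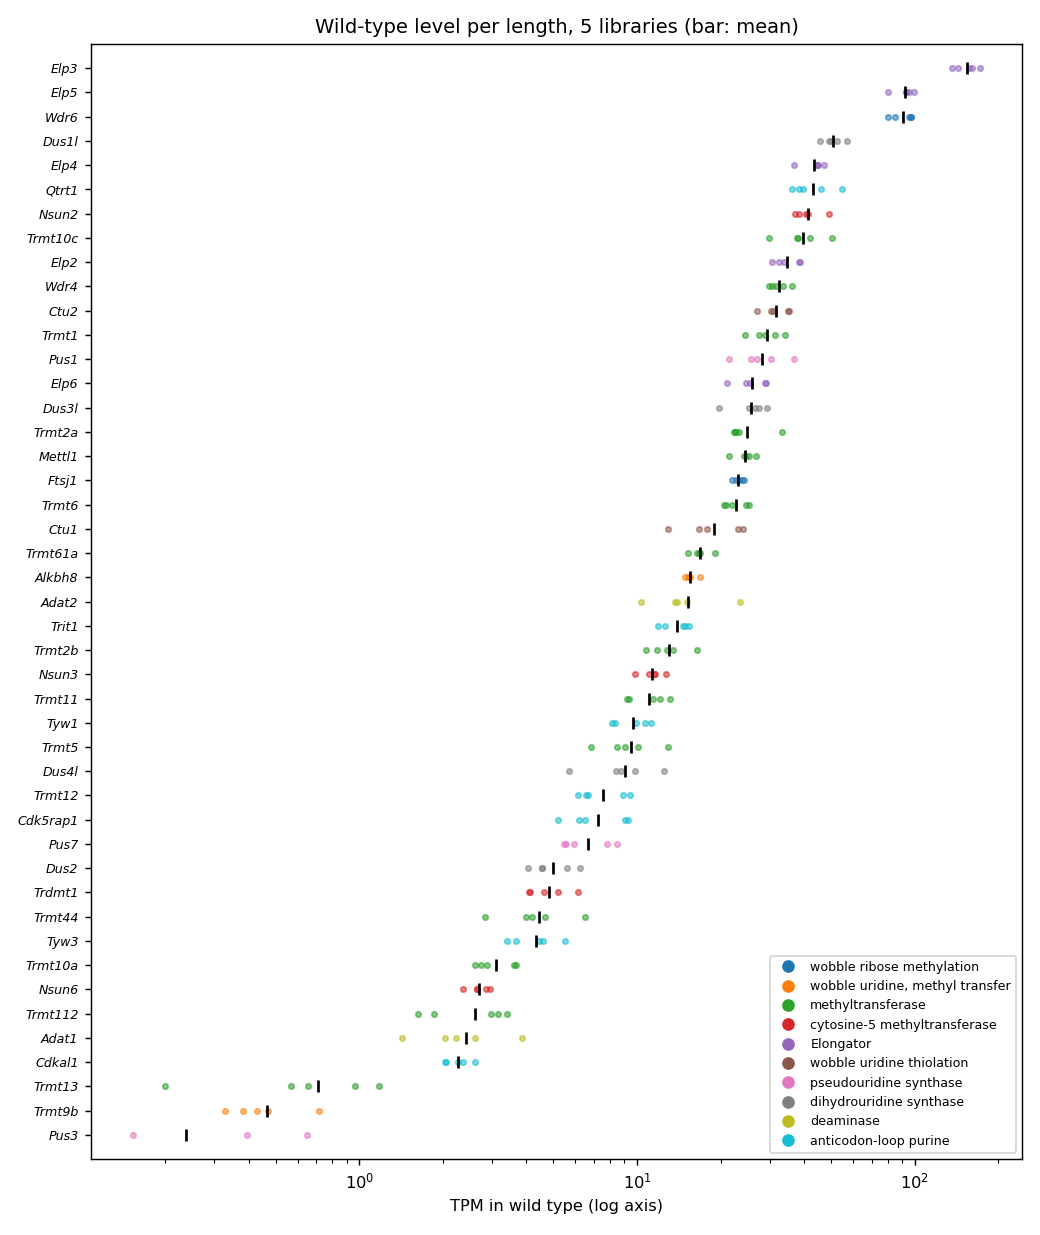
Level of 45 enzymes in wild type, in TPM on a log axis, ordered by the mean. Small points are the 5 wild-type libraries, black bars their means, and colours the roles; libraries at 0 have no point, and Adat3, at 0 in all libraries, is left out. Elp3, Elp5 and Wdr6 stand at the top, and Trmt13, Trmt9b and Pus3 at the bottom.

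Several of the genes at the low end share exons or sequence with other genes. Adat3, a subunit of the wobble adenosine deaminase, had 0 reads in all 12 libraries. All of its exon bases (100%) lie under exons of Scamp4 and Gm49322 in GENCODE M21, and a read that falls in several genes is left out of the counts as ambiguous. Pus3, a pseudouridine synthase, had 22 reads in all, from 0 to 11 per library, with 88.1% of its exon bases under Hyls1. Trmt112, the small cofactor that activates Trmt11 and Alkbh8, had only 147 reads over the 12 libraries, a level of 2.60 ± 0.803 TPM. Of its exon bases 39.1% lie under Esrra or Prdx5, and 54.0% of its windows of 50 bases also occur in transcripts of other genes, among them the pseudogenes Trmt112-ps1 and Trmt112-ps2. The levels of these 3 genes are uncertain for that reason, and how many reads this affected was not measured. Adat3 and Pus3 did not pass the filter on low counts, which left 44 members for the comparison. Trmt13, a ribose methyltransferase with 19.7% of its exon bases under 2 neighbours, was at 0.713 ± 0.377 TPM. Trmt9b shares no exon base and no window of 50 bases with another gene, and was at 0.465 ± 0.150 TPM in wild type.

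Trmt9b (ENSMUSG00000039620.17, protein coding, chromosome 8, 36457548 to 36516570, plus strand, GRCm38) encodes a homologue of the methyltransferase that acts with Trmt112 on wobble uridines, and it is the member with the largest difference between the groups. WT1, WT3, WT5, WT6 and WT7 had 14, 12, 20, 6 and 14 reads, against 70, 61, 49, 43 and 61 reads for KO2, KO3, KO5, KO6 and KO8. With TMM scaling, the wild-type values were 1.01, 1.157, 1.80, 0.742 and 0.915 CPM and the knockout values 6.81, 5.70, 4.37, 4.42 and 4.39 CPM, in the same order. Every knockout library lay above every wild-type library. The mean was 1.13 ± 0.406 CPM in wild type (SD, n = 5) and 5.14 ± 1.09 CPM in knockout (SD, n = 5). The log2 fold change was 2.18 (SE 0.30), or 4.52-fold. Even so the knockout level was low per length, at 2.02 ± 0.459 TPM, near that of Cdkal1 in wild type (2.27 ± 0.240 TPM).

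The marked libraries had the same order for Trmt9b, WT2 having 8 reads (0.946 CPM) and KO4 having 49 reads (4.77 CPM). KO2, tagged as wild type, had the highest value of all, and counted as wild type it brought the log2 fold change down to 1.20. Without the trend of each library on GC content the log2 fold change was 2.04, and with all 12 libraries it was 2.19. The other 4 members on chromosome 8, Trmt1, Ctu2, Dus2 and Adat1, had log2 fold changes of -0.22, -0.11, 0.04 and 0.10. Alkbh8, a dioxygenase with a methyltransferase domain of the same function at wobble uridines, had means of 51.1 ± 3.20 and 57.4 ± 8.25 CPM. Its log2 fold change of 0.17 (SE 0.11) did not pass in edgeR's test (adjusted p = 0.388).

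**Figure D2:**
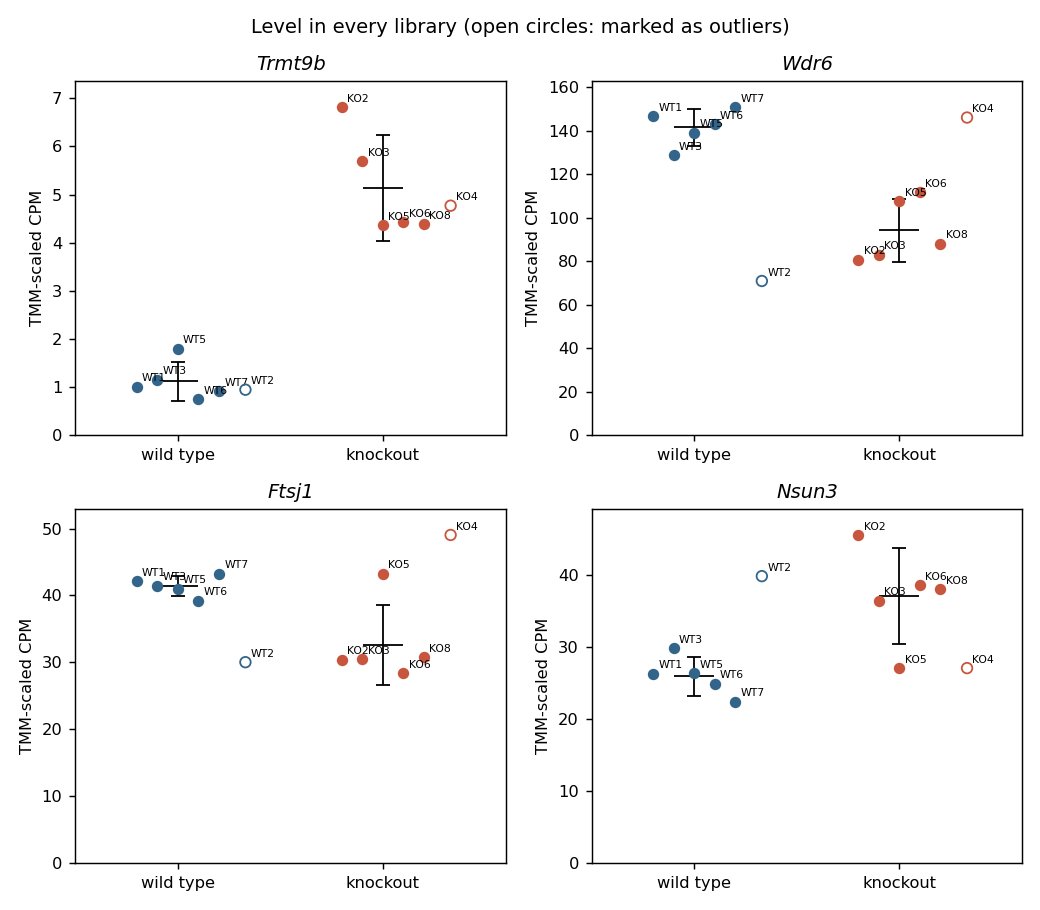
Level of Trmt9b, Wdr6, Ftsj1 and Nsun3 in each library, in TMM-scaled CPM. Filled points are the 5 wild-type and 5 knockout libraries compared, open points the marked libraries WT2 and KO4, and bars the mean and SD of the filled points. For Trmt9b the marked libraries lie with their groups, and for the other 3 genes they have the opposite order.

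Wdr6 and Ftsj1 make up the enzyme that methylates ribose at the wobble position, Ftsj1 being the catalytic subunit. Wdr6 (chromosome 9, 108572311 to 108578739, minus strand) shares 9.20% of its exon bases with Dalrd3 on the opposite strand, and the library kit does not mark strand. In the same order of libraries, wild type had 147, 129, 139, 143 and 151 CPM and knockout 80.8, 82.9, 108, 112 and 88.2 CPM. All knockout values lay below all wild-type values. From 142 ± 8.46 CPM the mean went to 94.3 ± 14.4 CPM (SD, n = 5), or -0.59 on the log2 scale (SE 0.11). The marked libraries had the reverse order, with WT2 at 70.9 CPM and KO4 at 146 CPM, and with both included the log2 fold change was -0.34. Dalrd3 itself went from 17.3 ± 3.79 to 14.3 ± 4.04 CPM, or -0.27 on the log2 scale (edgeR adjusted p = 0.421).

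Ftsj1 (chromosome X, 8238668 to 8252406, minus strand) had a narrow range in wild type, at 42.1, 41.5, 41.0, 39.2 and 43.2 CPM for WT1, WT3, WT5, WT6 and WT7. The knockout values were 30.4, 30.4, 43.2, 28.4 and 30.7 CPM for KO2, KO3, KO5, KO6 and KO8. KO5 was level with the highest wild-type value and the other 4 lay below all of them. The means were 41.4 ± 1.48 and 32.6 ± 6.00 CPM, or -0.34 on the log2 scale (SE 0.12). This did not pass in edgeR's test (adjusted p = 0.150, unadjusted p = 0.0116). WT2 at 30.0 CPM and KO4 at 49.0 CPM had again the reverse order.

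The bases before the starts of both subunits are shown because the subunits form 1 enzyme and both had lower means in knockout. These are the 250 bases upstream of the RefSeq start on the minus strand in GRCm38.p6, at chr9:108578714-108578963 for Wdr6 and chrX:8252407-8252656 for Ftsj1, with CAGAC or its reverse complement GTCTG, the short form of the SMAD-binding box, in capitals:
Wdr6: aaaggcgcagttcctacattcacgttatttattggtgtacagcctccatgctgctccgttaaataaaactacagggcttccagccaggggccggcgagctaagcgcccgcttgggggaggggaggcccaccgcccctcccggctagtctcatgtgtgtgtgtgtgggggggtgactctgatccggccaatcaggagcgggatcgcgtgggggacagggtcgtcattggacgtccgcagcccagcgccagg
Ftsj1: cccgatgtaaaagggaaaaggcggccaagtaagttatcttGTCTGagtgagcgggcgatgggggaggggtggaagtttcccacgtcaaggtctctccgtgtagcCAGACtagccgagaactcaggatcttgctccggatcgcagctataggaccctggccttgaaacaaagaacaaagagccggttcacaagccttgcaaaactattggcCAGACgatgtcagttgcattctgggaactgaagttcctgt
The letters occur 3 times before Ftsj1 and 0 times before Wdr6. They occur in 42.2% of all 32851 promoters of this length and in 34.04% of the 47 promoters listed for 39 of the members, so a match is common.

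Among the 42 tested members that were listed for function alone, none was called by edgeR at an adjusted p under 0.05, where 0.0223% of all 13442 genes tested were called (3 genes, Trmt9b among them; 0.0149% higher, 0.00744% lower). Before adjustment, p was under 0.05 for 9 of the 42, or 21.4%, beside 21.8% of all genes tested, so with TMM scaling the share is that of the background. Of the 9, 3 had higher means in knockout and 6 lower, beside 11.8% and 9.97% of all genes. None of the 42 had groups without overlap, beside 2.35% of all genes (1.04% with knockout higher and 1.31% with knockout lower). With the scaling of DESeq2, library size alone or the GC trend removed, 1 of the 42 had (2.43%, 2.51% and 1.96% of all genes). The median log2 fold change of the 42 was -0.13, with a range from -0.65 to 0.52, and 25 of 42 (59.5%) were below 0. The median of all genes was 0.00133 and 49.9% were below 0. The smallest adjusted p among them was 0.128. Without KO5 the same fit called 9 of the 42 at an adjusted p of 0.05, beside 22.9% of all genes, and 15 had an unadjusted p under 0.05, beside 35.5%. DESeq2 called 1 (Nsun3), beside 3.43% of all genes, with 9 at an unadjusted p under 0.05, beside 23.1%. With no filter edgeR called 2 (Nsun3 and Ctu1), beside 3.49%, with 10 at an unadjusted p under 0.05, beside 16.7%.

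**Figure D3:**
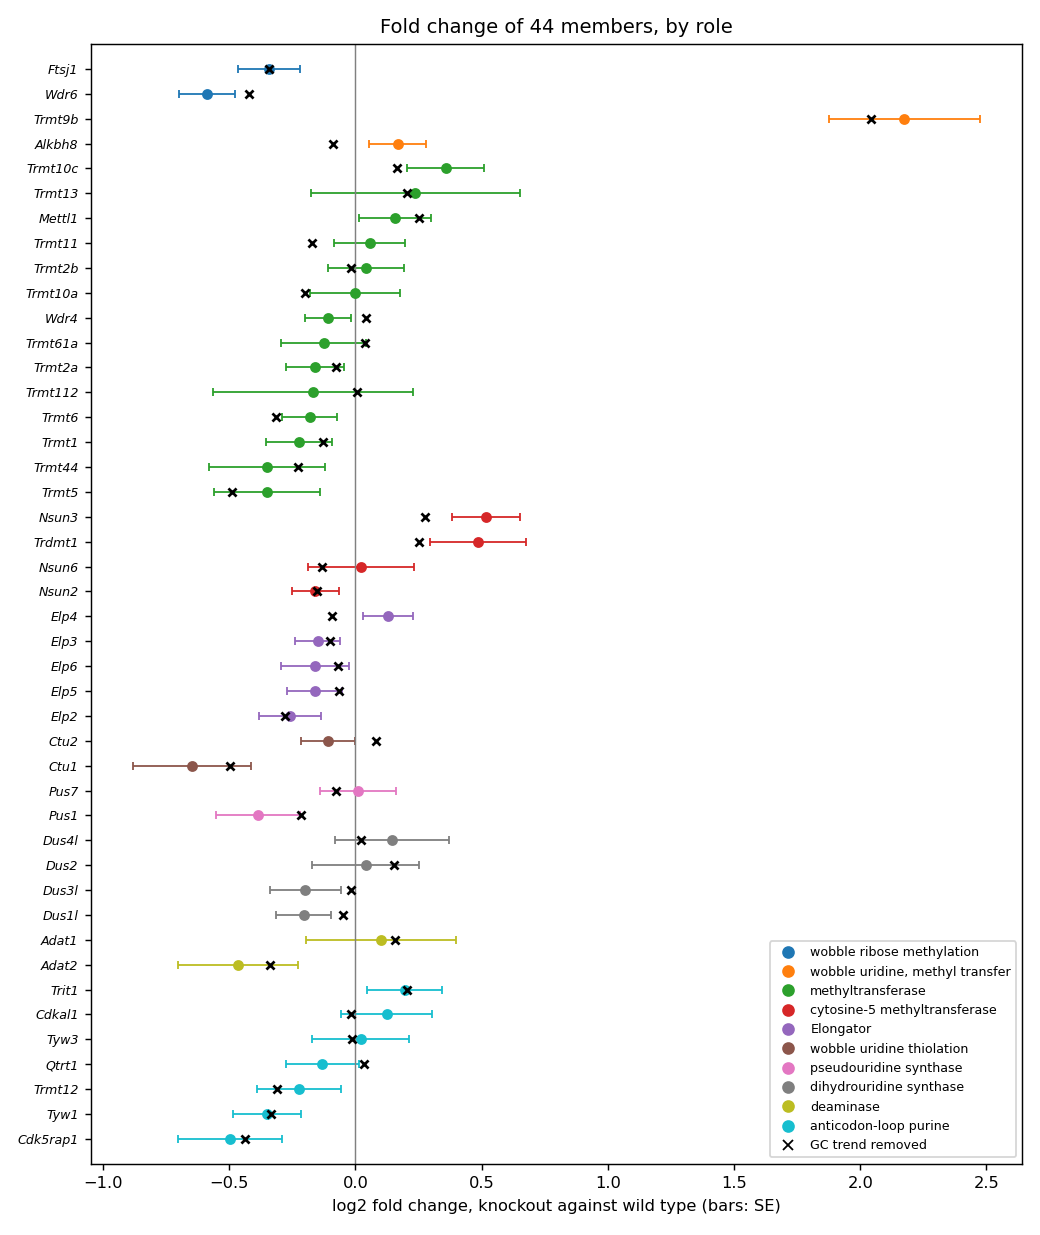
Log2 fold change of the 44 tested members in knockout against wild type, grouped and coloured by role, with bars of 1 SE. Black crosses are the values after each library's GC trend was removed. Trmt9b stands apart at 2.18, and all other members lie between -0.65 and 0.52.

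Of the 42, the 3 with higher means at an unadjusted p under 0.05 were all low in GC content. Nsun3 (chromosome 16), which starts the formylcytosine mark on mitochondrial tRNA, had 26.3, 29.8, 26.4, 24.9 and 22.4 CPM in the wild-type libraries, in the order above. The knockout libraries had 45.5, 36.4, 27.0, 38.5 and 38.0 CPM. KO5 fell inside the wild-type range and the other 4 lay above it. The log2 fold change was 0.52 (SE 0.14, unadjusted p = 0.00133, edgeR adjusted p = 0.128). Trdmt1, the cytosine methyltransferase also called Dnmt2, had means of 6.97 ± 1.35 and 9.78 ± 1.80 CPM (log2 difference 0.49, SE 0.19, edgeR adjusted p = 0.170). Trmt10c, a methyltransferase that is also part of mitochondrial RNase P, had 44.8 ± 9.43 and 57.5 ± 10.9 CPM (log2 difference 0.36, SE 0.15, edgeR adjusted p = 0.194). Its ranges overlapped widely, from 31.9 to 58.3 CPM in wild type and from 40.9 to 70.6 CPM in knockout. The other cytosine methyltransferases, Nsun2 and Nsun6, had log2 fold changes of -0.16 and 0.02.

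Of the members with lower means, Ctu1 and Ctu2 together thiolate wobble uridines. Ctu1 had wild-type values of 15.3, 21.9, 17.5, 21.2 and 11.97 CPM, in the order above, and knockout values of 10.7, 9.34, 17.6, 12.1 and 6.19 CPM. The groups overlapped, with KO5 and KO6 above WT7. The log2 fold change of Ctu1 was -0.65 (SE 0.23, unadjusted p = 0.0124, edgeR adjusted p = 0.152), the lowest of all members. Ctu2, which had 61.4 ± 5.48 and 56.9 ± 5.84 CPM, was at -0.11 (SE 0.11, adjusted p = 0.568). Of the exon bases of Ctu2, 47.3% lie under Piezo1 on the opposite strand, and how many reads this affected was not measured. Piezo1 was at 0.730 ± 0.252 CPM in wild type.

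Elongator adds the carboxymethyl group on which methylation of wobble uridines builds. Of the 5 listed subunits only Elp2 had an unadjusted p under 0.05. Its wild-type values were 78.8, 74.2, 79.97, 85.4 and 90.5 CPM, and its knockout values 60.6, 79.9, 84.3, 60.2 and 56.2 CPM. KO3 and KO5 were within the wild-type range and the other 3 below it. The log2 fold change of Elp2 was -0.26 (SE 0.12, unadjusted p = 0.0483, edgeR adjusted p = 0.227). Elp3 had 173 ± 9.54 and 156 ± 7.63 CPM, Elp5 79.2 ± 5.06 and 70.9 ± 9.97 CPM, and Elp6 27.9 ± 3.58 and 24.9 ± 3.58 CPM. Their log2 fold changes of -0.15, -0.16 and -0.16 had adjusted p-values of 0.329, 0.392 and 0.497. Elp4 was the exception in sign, at 54.2 ± 4.23 and 59.2 ± 3.42 CPM (log2 fold change 0.13), and was at -0.09 with the GC trend removed. Elp5 turned to 0.01 with all 12 libraries.

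Tyw1, Cdk5rap1 and Pus1 also had lower means and a p under 0.05 before adjustment. Tyw1, which makes the tricyclic base wybutosine beside the anticodon, went from 26.7 ± 3.27 to 20.98 ± 2.77 CPM (log2 difference -0.35, SE 0.13, edgeR adjusted p = 0.164). Cdk5rap1, which adds a methylthio group in mitochondrial tRNA, had 9.34 ± 2.39 and 6.62 ± 1.15 CPM (log2 difference -0.50, SE 0.21, adjusted p = 0.181). Pus1, a pseudouridine synthase, had 23.0 ± 3.93 and 17.6 ± 4.12 CPM (log2 difference -0.39, SE 0.17, adjusted p = 0.194), with 30.1% of its exon bases under Gm15559 and Gm26515. The groups of all 3 overlapped.

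In the remaining roles the members named next had an unadjusted p above 0.05 in edgeR's test. The 4 dihydrouridine synthases had log2 fold changes from -0.20 (Dus1l and Dus3l) to 0.15 (Dus4l). Among the deaminases, Adat2, the catalytic partner of Adat3, was at -0.46 (SE 0.24, adjusted p = 0.261) on 30 to 127 reads per library, and Adat1 at 0.10. Of the 14 other methyltransferases and their partners, only Trmt10c had a p under 0.05. The subunits of the guanosine-7 methyltransferase, Mettl1 and Wdr4, were at 0.16 and -0.11, and those of the adenosine-1 methyltransferase, Trmt6 and Trmt61a, at -0.18 and -0.13. Trit1 and Cdkal1, which modify the adenosine beside the anticodon, were at 0.19 and 0.12, and Qtrt1, the catalytic subunit of queuosine insertion, at -0.13.

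A further 48 genes of tRNA modification were counted beside these members, of which 47 were matched and tested. None was called, beside 0.0223% of all genes, and 4 had an unadjusted p under 0.05 (8.51%, beside 21.8% of all genes), with 1 higher and 3 lower (11.8% and 9.97% of all genes). On the lower side the pseudouridine synthases Trub2 and Pusl1 were at -0.29 (edgeR adjusted p = 0.148) and -0.28 (0.214) on the log2 scale. On the higher side Pus10, another pseudouridine synthase, was at 0.39 (adjusted p = 0.163), and the wybutosine hydroxylase Tyw5 and the dioxygenase Alkbh1 followed without reaching an unadjusted p of 0.05.

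Fold changes of the members moved with the GC content of their transcripts. Across the 42 members listed for function the correlation of GC content with log2 fold change was -0.60 (Pearson) and -0.53 (Spearman), as a description over genes that share the same libraries. Across all genes with a GC value it was -0.46 and -0.50. Of the 20 members with a GC content of at least 50%, 17 were below 0, and of the 22 others 8 were (70.6% and 31.8% of all genes). With the trend of each library removed the member correlation was -0.05 and 0.02, and 12 of the 20 and 16 of the 22 were below 0.

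**Figure D4:**
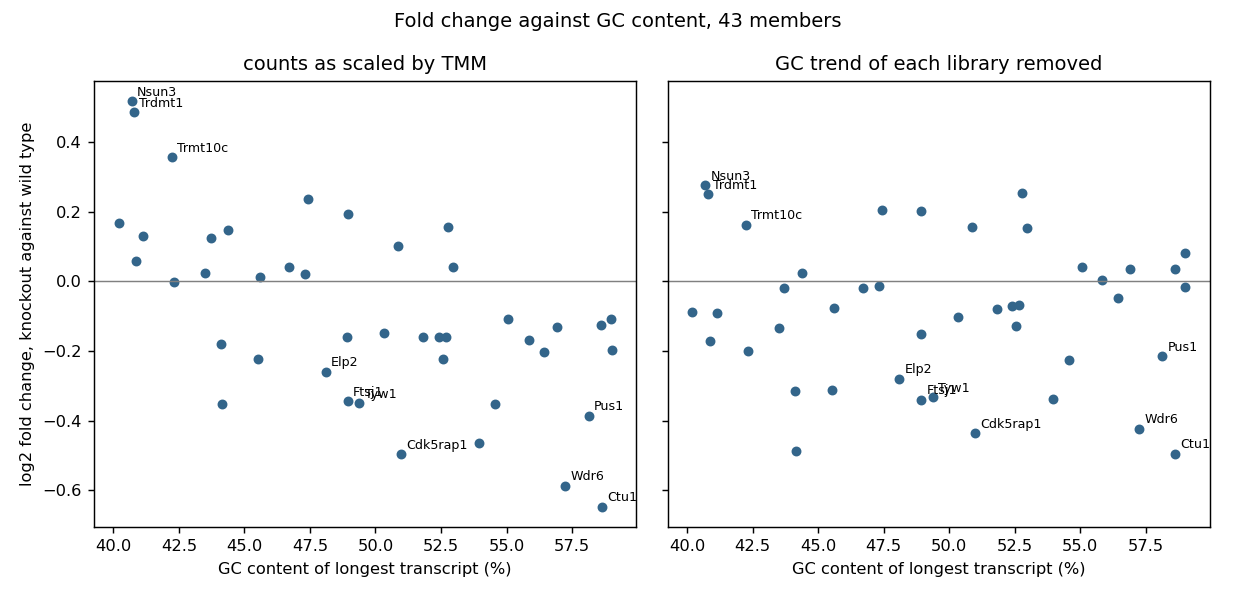
Log2 fold change in knockout against wild type, against the GC content of the longest transcript in percent, for 43 tested members (Trmt9b is outside the range and left out). The left panel holds the values from TMM scaling alone, with lower values towards the GC-rich side, and the right panel the values with each library's GC trend removed, where the slope is near level.

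This GC balance differed between libraries and did not follow the titles alone. It was taken as the median log2 deviation from the mean of all libraries among the most GC-rich genes (at least 57.9% GC) minus that among the most GC-poor genes (at most 40.9% GC). The balance was 0.28, 0.06, 0.22, 0.53 and 0.27 for WT1, WT3, WT5, WT6 and WT7. It was -0.42, -0.42, 0.39, -0.01 and -0.36 for KO2, KO3, KO5, KO6 and KO8, and among the marked libraries -0.89 for WT2 and 0.39 for KO4. Thus KO5 and KO4 lay among the wild-type libraries and WT2 below all knockout libraries. WT2, KO2 and KO3 had the lowest balance and the lowest Wdr6 values. KO5, with a balance above that of all compared wild-type libraries but WT6, had 108 CPM of Wdr6, below all 5 of them. KO4, with the same balance of 0.39, had 146 CPM of Wdr6, within their range.

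**Figure D5:**
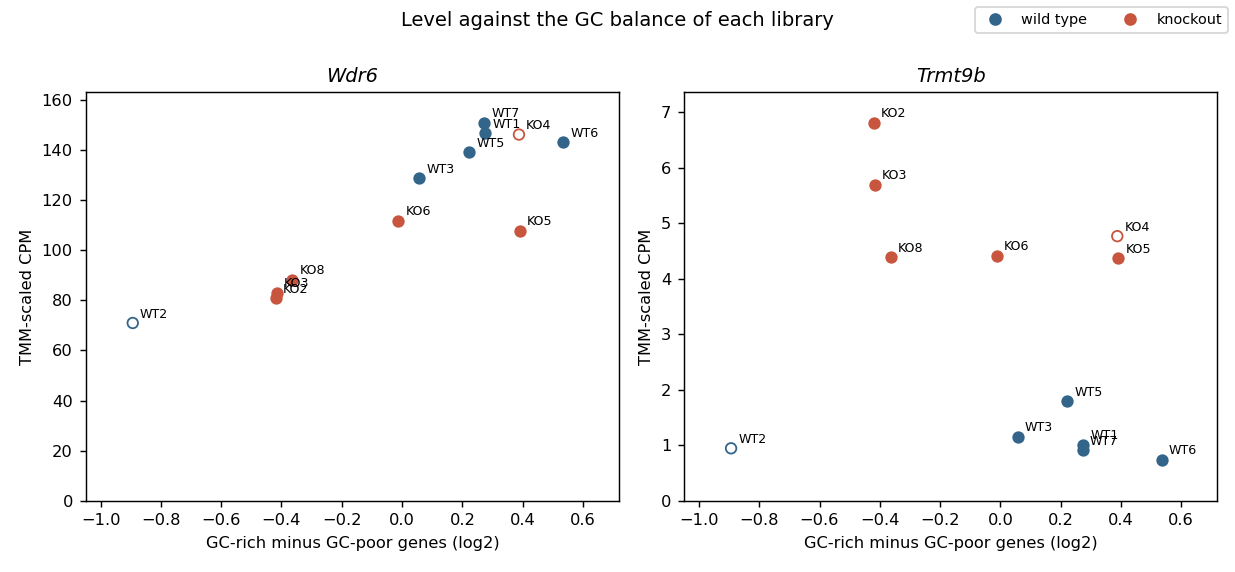
Level of Wdr6 and Trmt9b in TMM-scaled CPM against the GC balance of each library (log2, GC-rich minus GC-poor genes). Filled points are the 10 libraries compared and open points WT2 and KO4. Wdr6 is lowest in WT2, KO2 and KO3, where the balance is low. Of the 2 knockout libraries with a balance of 0.39, KO5 is below the 5 compared wild-type libraries and KO4 is within their range. Trmt9b lies between 0.742 and 1.80 CPM in all wild-type libraries (balance -0.89 to 0.53) and between 4.37 and 6.81 CPM in all knockout libraries (balance -0.42 to 0.39).

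With the trend removed over all 12 libraries, Wdr6 was at 124 to 138 CPM in the 5 wild-type libraries and 89.5 to 112 CPM in the 5 knockout libraries, still without overlap, while WT2 at 93.2 CPM and KO4 at 136 CPM kept the reverse order. The part of this balance in the difference of Wdr6 was not tested. In the fit to 10 libraries its log2 fold change went from -0.59 to -0.42. Ftsj1, with a GC content of 48.9%, stayed at -0.34. Nsun3 went from 0.52 to 0.28, Trdmt1 from 0.49 to 0.25, Trmt10c from 0.36 to 0.16, Ctu1 from -0.65 to -0.49 and Pus1 from -0.39 to -0.22. In that fit 8 of the 42 members had an unadjusted p under 0.05, beside 15.6% of all genes, and none passed after adjustment, beside 0.0372% of all genes. At an unadjusted p under 0.05 were Ftsj1, Trmt6, Tyw1, Elp2, Ctu1, Trmt5 and Cdk5rap1 on the lower side and Nsun3 on the higher side.

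The marked pair ran against the other 10 libraries in most members, and in a larger share of all genes. In 27 of the 42 the difference of KO4 and WT2 had the opposite sign to the fold change, beside 73.2% of all genes. With all 12 libraries in the fit, 0 of the 42 had an unadjusted p under 0.05, where 3.47% of all genes did, and none was called, beside 0.00751% of all genes.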

How the data were processed

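Reads of 12 laser-cut libraries were analysed from the tables the authors deposited, which give raw counts per gene in HTSeq's format. The submitters' processing notes list cutadapt 1.16, STAR 2.5.3a, HTSeq 0.6.1, DESeq2 and the build mm10. Sources used here give no settings, annotation release or strand option. The 5 summary lines of each table were dropped. Between 6.81% and 8.13% of uniquely placed reads were ambiguous between genes, and several-place alignments were 64.4% to 67.6% of records. Symbols, positions, exon lengths and overlaps came from GENCODE M21 (GRCm38), where 39 of the 46 members have the same identifier version, and promoters from RefSeq.

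Groups came from titles. All 30 within-group pairs of libraries differed beyond counting noise (chi-square over its degrees of freedom from 6.15 to 85.3). Genes passed filterByExpr (minimum count 10) and were TMM-scaled, then tested with edgeR 4.0.16 (robust quasi-likelihood, limma 3.58.1, R 4.3.3), with Benjamini-Hochberg adjustment over all genes tested. DESeq2 1.42.0 was an alternative. CPM uses TMM factors over 12 libraries, and TPM the length of all exons. The GC trend was a spline with 5 degrees of freedom per library, used as an offset. The procedure was tested on simulated counts that held no GC trend and no deviant library, so the test does not cover these features of the data. The members, gene lists and alternatives were chosen with earlier results of these data known. Described in full are Trmt9b, Wdr6, the members with an unadjusted p under 0.05 and the partners in their complexes. Of the other tRNA modification genes up to 3 per direction with the smallest p are named, and some genes are not reported here.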

Additional observations from a re-analysis of the deposited data

Results flagged for a closer look

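In 8 of 88 groups of 5 values (44 members in 2 groups), the highest or lowest library stood apart from the others. The gap was more than Dixon's 95% limit of 0.71 of the range, which independent normal values pass about 1 time in 20. The members share the same 10 libraries, and the share over all genes was not counted. The number flagged is therefore no result about these enzymes. Ftsj1 in KO5 was at 43.2 CPM, with the other knockout libraries between 28.4 and 30.7 CPM. Trmt6 in KO2 was at 33.2 CPM, below the others at 40.9 to 43.5 CPM. Trmt112 in KO8 was at 1.73 CPM, above 0.779 to 1.03 CPM. Trmt2a in WT6 was at 62.9 CPM, above 45.1 to 47.8 CPM. Elp4 in KO8 was at 65.2 CPM, above 56.8 to 58.5 CPM. Elp5 in WT3 was at 70.5 CPM, below 79.9 to 83.7 CPM. Trit1 in KO2 was at 15.4 CPM, above 11.6 to 11.9 CPM. Tyw3 in KO3 was at 5.32 CPM, below 7.49 to 7.99 CPM.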

How the results depend on the processing

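Trmt9b kept its direction in all 21 alternatives, with log2 fold changes from 1.20 to 2.40. The adjusted p for which it was listed is no test of it, and was above 0.05 with KO2 counted as wild type (1.20), with the replicate block (1.98), without WT7 (2.10) and without KO2 (2.06). DESeq2 gave Trmt9b no adjusted p. Counts over all 44 members tested include Trmt9b and Wdr6, which were chosen for their difference, so the counts of the other 42 and the share of all genes follow each. Past an adjusted p of 0.05 were 1 of 44 and 0 of 42 members in edgeR's test. DESeq2 gave 2 and 1 (Wdr6 and Nsun3 of the 44, 3.43% of all genes). With no filter, where Pus3 was tested as well, 4 of 45 members passed, and 2 with Trmt9b and Wdr6 left out (3.49%). Both KO2 counted as wild type and the replicate block gave 0 and 0 (0% each). At an unadjusted p under 0.05 they had 2 and 1 of the 42. With 1 library left out the 44 gave 0 (without WT7 or KO2) to 11 (without KO5, 9 of 42, 22.9% of all genes), and 2 without KO6 (0 of 42, 0.0441%). At an unadjusted p under 0.05 were 11 of 44 and 9 of 42 members (21.8% of all genes). Library size alone gave 16 and 14 (21.4%). All 12 libraries gave 1 and 0 (3.47%), KO2 counted as wild type 4 and 2 (5.52%), all 12 libraries with the GC trend removed 4 and 2 (4.11%), and the replicate block 3 and 1 (4.52%). The range with 1 library left out was 6 (without KO8, 4 of 42, 14.9%) to 17 (without KO5, 15 of 42, 35.5%).

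Without overlap were 2 of 44 and 0 of 42 members (2.35% of all genes). DESeq2 (2.43%), library size alone (2.51%) and the GC trend removed (1.96%) each gave 3 and 1. Settings with all 12 libraries gave 1 and 0 (0.15% with edgeR and limma voom, 0.18% with the GC trend removed), and KO2 counted as wild type 0 and 0 (0.905%). With 1 library left out the 44 gave 2 to 7, with 5 without WT3 (3 of 42, 6.3%), 6 without WT5 (4 of 42, 3.46%) and 7 without KO5 (5 of 42, 15.1%). The median log2 fold change (-0.13) was -0.026 with all 12 libraries and the GC trend removed. Signs reversed for Elp4 with the GC trend removed (-0.091), for Elp5 with all 12 libraries (0.011) and with the GC trend removed there too (0.062), and for Ctu2 with KO2 counted as wild type (0.0028) and with the GC trend removed (0.082). The cause was not tested. Over all genes the calls (3) were 461 with DESeq2, 965 with no filter, 3102 without KO5, 5 with the GC trend removed and 1 with all 12 libraries.

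The replicate numbers shared by both groups are not said to mark a litter or day. In the fit with the replicate block the contrast rested on numbers 3, 5 and 6 alone. WT1, WT7, KO2 and KO8 had no library of the same number in the other group. Deviations of same-numbered libraries correlated at 0.14 (number 3), -0.072 (number 5) and 0.11 (number 6), and WT3 and WT6 correlated more with another number (0.30 with KO2 and 0.36 with KO5), so the block was not used for pairing. Low counts limit Trmt9b, Trmt112 and Trmt13, with at most 37 reads per library for Trmt13.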

Other observations

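Genes within 5 Mb of Trmt9b on chromosome 8 were looked at after its values were seen. By edgeR's test 7 of 35 neighbours tested (20%, beside 21.8% of all genes) had p under 0.05 before adjustment. Of these, 5 were higher in knockout and 2 lower, beside 11.8% and 9.97% of all genes. Pcm1, a centriolar satellite protein, went from 59.2 to 83.3 CPM and Pdgfrl from 2.82 to 4.94 CPM. On the lower side, Saraf, a regulator of calcium entry, went from 113 to 87.3 CPM and Dusp4, a phosphatase of MAP kinases, from 19.0 to 11.1 CPM. None passed after adjustment, with the smallest adjusted p at 0.124. Around Wdr6, 21 of 114 neighbours within 5 Mb had an unadjusted p under 0.05 (18.4%, beside 21.8% of all genes). Of these, 5 were higher and 16 lower, beside 11.8% and 9.97% of all genes. The cause of this split was not tested.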
